A study of Homo sapiens with 6 samples.

Results

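ATAC-seq peaks outside the assembled chromosomes were examined in wild-type hTERT-RPE1 cells, a human retinal pigment epithelial line made immortal by the telomerase gene hTERT. The members are all peaks that lie on unplaced sequences (names starting chrUn), on unlocalised sequences (names ending _random), on alternate sequences (names ending _alt) or on the mitochondrial genome (chrM), grouped by sequence. They were chosen by sequence name alone. They number 625 of 143492 peaks (0.436%) in the R1 list and 586 of 134940 (0.434%) in the R2 list. ATAC-seq maps accessible DNA by where the transposase Tn5 cuts and tags it, here in isolated nuclei. The 6 libraries carry the same genotype and no treatment in their labels, and their titles place 3 in each of the sets R1 and R2. What distinguishes R1 from R2, and whether the libraries came from separate cultures, is not in the labels, and none of the 6 is a treated or control library.

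The 3 libraries of a set share 1 pooled list of peaks on the hg38 build, so every value describes a pooled list, with no spread between libraries and no test. Chromosomes 1 to 22 and X, used here for comparison, held 142865 peaks in R1 and 134351 in R2, and chromosome Y held 2 and 3.

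Unplaced sequences are pieces of the human assembly that could not be assigned to a chromosome. Unlocalised sequences are assigned to a chromosome but not to a position in it. Many of both kinds carry repeated DNA, such as satellites, segmental duplications and the genes for ribosomal RNA (rRNA), because repeats are what assembly leaves unresolved. Reads from repeated DNA match several places at once, and the sources used here do not say how the authors placed such reads. The repeated rRNA genes lie in tandem arrays on the short arms of the acrocentric chromosomes, and RNA polymerase I transcribes each unit as a 45S precursor that yields the 18S, 5.8S and 28S rRNAs. Mitochondrial DNA is a small circular genome that is not packed in nucleosomes.

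The label of the set names alternate sequences, but 0 peaks of either list lay on a sequence with an _alt name. Unplaced sequences held 309 peaks in R1 and 280 in R2. Unlocalised sequences held 314 and 304, and chrM held 2 in each list. The peaks lay on 84 sequences in each list, 81 of which had a peak in both. Genes of alternate haplotypes, such as those of the major histocompatibility complex, are therefore not described.

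The gene table places 3 miRNA hairpins just before rRNA genes of chromosome 21. MIR6724-1 and MIR6724-3 lie from 673 to 582 bases before the starts of RNA45SN2 and RNA45SN3, and MIR6724-4 (8432530 to 8432621, plus strand) lies from 692 to 601 bases before that of RNA45SN1. The sequence of MIR6724-4 is shown because the peaks at the start of the rRNA units of the members, described below, cover the same distances before the 45S start. Whether the same letters stand there on the sequences of the members was not tested. The letters are from RefSeq on GRCh38.p14, written as RNA, and the capitals mark the seed (bases 2 to 8) of the mature miRNA.
hairpin of MIR6724-4: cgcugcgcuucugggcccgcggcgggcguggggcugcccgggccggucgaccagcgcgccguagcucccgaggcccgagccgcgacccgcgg
hsa-miR-6724-5p: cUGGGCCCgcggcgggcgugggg
G and C make up 83.7% of the hairpin.

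The rRNA genes were described first. The authors give a fold enrichment over the local background and a p-value for each peak, from which 2 further values were worked out, the pileup (fragments over the summit) and the local background. The RefSeq gene table lists RNA45SN5 at 105424 to 118780 on a sequence it does not name and RNA45SN4 at 122273 to 135645 under chromosome 22. From general knowledge of the assembly, they are placed here on chrUn_GL000220v1 and chr22_KI270733v1_random. Each of these sequences holds a further copy of the 18S gene, the pseudogenes RNA18SP3 and RNA18SP4, which begin 43972 and 45081 bases after the first copy. There are thus 4 copies of the unit, and they were aligned at the start of the 18S gene. Within 6000 bp before to 12000 bp after these starts lay 33 peaks in R1 and 30 in R2. Whether each sequence runs on that far after its second copy is not in the lists.

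Peaks over the rRNA units had low folds and very high pileups. In R1 their folds lay between 1.22 and 4.28 around a median of 2.26, and their pileups between 1371 and 2808 around a median of 2110 fragments. In R2 folds lay between 1.31 and 3.36 (median 2.03) and pileups between 1605 and 2889 (median 2195.5). The local background was high too, with medians of 907 and 1110 fragments. All peaks of chromosomes 1 to 22 and X had a median pileup of 72 in each list and a median background of 11.6 in R1 and 11.5 in R2.

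Several positions of the unit held a peak in all 4 copies, and others in some copies only. A peak over the 18S gene, which encodes the rRNA of the small ribosomal subunit, was called in every copy and in both lists. Its summit lay between 1402 and 1405 bases after the 18S start in all 8 cases. The pileup there was 2452 in RNA18SN5, 2396 in RNA18SP3, 2388 in RNA18SN4 and 2398 in RNA18SP4 in R1. In R2 it was 2266, 2335, 2340 and 2284 in the same order. Within each list the 4 copies thus differed by little. These copies are near-identical repeats, so reads from any of them, or from rRNA genes elsewhere in the genome, could have been counted at any of them. The values of the 4 copies are not independent measurements.

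The stretch of the 28S gene, which encodes the large subunit rRNA, held several separate peaks. One had its summit 6846 to 6848 bases after the 18S start in all 4 copies and both lists, with a pileup of 2218 to 2298 in R1 and 2201 to 2276 in R2. Another had its summit at 6022 to 6025 bases in all 4 copies in R1, with a pileup of 2092 to 2128. In R2 the summits of that peak lay at 5888 to 6025 bases, with a pileup of 2048 to 2190. Peaks covered 52.6% of RNA28SN5 in R1 and 55.6% in R2, and 50.6% and 58.7% of RNA28SN4. The highest pileup over RNA28SN5 was 2786 in R1 and 2771 in R2, near the end of the gene, and over RNA28SN4 it was 2808 and 2802. A peak just past the end of RNA45SN4 was higher still in R2, with 2889 fragments, and lower in R1, with 1599. The other copies have shorter pseudogenes at the 28S place, LOC124905315 and LOC124905332. These reached 2298 and 2222 in R1 and 2275 and 2201 in R2. In those copies the highest R1 pileup was that of the 18S place. The pseudogenes end 8752 and 8760 bases after the 18S start. The highest peaks over RNA28SN5 and RNA28SN4 had summits at 8731 to 8745 bases and ran on past those ends. Whether the lower values of the pseudogenes come from missing sequence was not tested.

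The start of the 45S transcript was also marked in both copies that have one in the gene table. In R1, peaks reached from 1283 bases before to 110 bases after the start of RNA45SN5 and from 1269 before to 78 after that of RNA45SN4. Their pileups were 2397 and 2393, and their folds of 4.28 and 3.87 were the highest of their units. The R2 peaks began 1235 and 1222 bases before the start and ran on to 1624 and 1630 bases after it, where R1 has separate peaks. Their pileups were 2432 and 2437 and their folds 3.36 and 2.92. The summits lay 873 and 879 bases before the start in R1 and 836 and 837 bases before it in R2. All 4 peaks thus cover the distances at which the hairpin printed above lies before RNA45SN1. The copies without a 45S gene in the gene table also held peaks at this place of the unit. On chrUn_GL000220v1 the pileup was 2292 in R1 and 2380 in R2, with folds of 3.88 and 3.14. On chr22_KI270733v1_random it was 2176 and 2286, with folds of 3.85 and 2.85. The small gene for 5.8S rRNA held a peak on chrUn_GL000220v1 in both lists (RNA5-8SN5, pileups of 1528 and 1690, and the pseudogene RNA5-8SP8, 1474 and 1625) and none on RNA5-8SN4. The pseudogene RNA5-8SP9 held one in R2 alone, with a pileup of 1605.

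**Figure D1:**
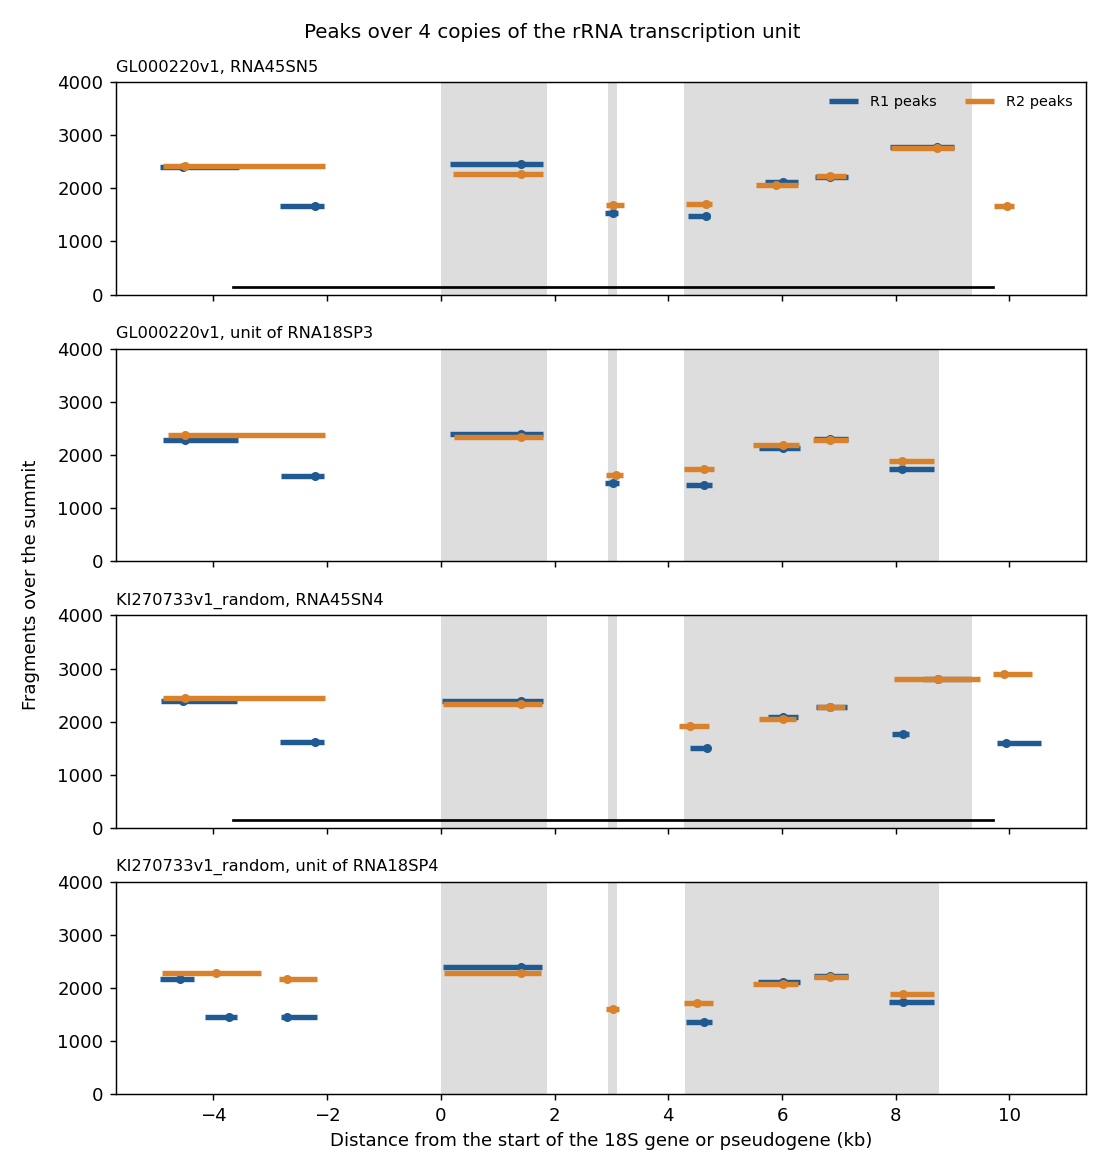
Peaks over 4 copies of the rRNA transcription unit, with distance from the start of the 18S gene or pseudogene in kb (horizontal axis) and fragments over the summit (vertical axis). Bars show the extent of peaks and dots their summits in R1 (blue) and R2 (orange), grey bands the 18S, 5.8S and 28S genes or pseudogenes, and the black line the 45S gene where the table lists one. The 18S summits sit at 1402 to 1405 bases in every copy and list.

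Both sequences were also compared as a whole. Moving the peaks of chrUn_GL000220v1 by 16853 bp, the difference between the first 18S starts, brought 25 of 31 onto a peak of chr22_KI270733v1_random in R1 and 21 of 28 in R2. From the other side, 26 of 36 peaks in R1 and 21 of 33 in R2 were met. Of the peaks of chrUn_GL000220v1 outside the units, 12 of 15 met one in R1 and 9 of 13 in R2. Of those of chr22_KI270733v1_random outside the units, 12 of 19 were met in R1 and 9 of 18 in R2. At 17962 bp, the difference between the second 18S starts, the former were 8 of 15 and 7 of 13. The latter were 9 of 19 and 8 of 18. How many would meet by chance was not tested. Away from the units the same sequences held 34 peaks in R1 and 31 in R2, with median pileups of 263 and 265. Their folds reached 12.4 and 12.3, but the median folds were low there too. They were 2.41 in R1 and 2.84 in R2, against 2.26 and 2.03 over the units. The gene table lists RNA45SN2, RNA45SN3 and RNA45SN1 on chromosome 21 between 8205988 and 8446572. Within 6000 bp of these 3 genes, 0 peaks were called in either list, and the first peak of chromosome 21 began at 8705817 in R1 and 8705995 in R2.

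On chrM each list held 2 wide peaks, which combined the lowest folds with the highest pileups of their lists. The first covered bases 114 to 3978 in R1 and 138 to 3978 in R2. The second covered 12566 to 16444 in R1 and 12608 to 16439 in R2. They lay towards the 2 ends of the sequence as written, with 113 bp before the first peak in R1 and 137 bp in R2. The genome is circular, so these ends adjoin. Whether the cut at the ends of the written sequence affected the local background was not tested. Pileups were 8021 and 8760 in R1 and 7658 and 8118 in R2. The higher value in R1 was 5.59 times the highest pileup on chromosomes 1 to 22 and X, which was 1568, and that in R2 was 5.46 times the highest there, 1486. Folds were 1.19 and 1.21 in R1 and 1.25 and 1.18 in R2, the lowest 2 of each list. The background, worked out from the fold and the p-value, was 6747 and 7250 fragments in R1 and 6128 and 6878 in R2. The peaks were thus modest rises over a high local background.

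Of the 37 mitochondrial genes of the table, 10 lay wholly inside a peak in both lists, 2 in part and 25 outside. Both rRNA genes were covered, RNR1 (648 to 1601) and RNR2 (1671 to 3229), as were 6 of 22 transfer RNA genes. Among the 13 protein-coding genes, CYTB, which encodes cytochrome b of respiratory complex III, and ND6, a subunit gene of complex I, were wholly covered. ND1 was covered over 70.3% of its length in both lists and ND5 over 87.4% in R1 and 85.0% in R2. The other 9, among them ND2, COX1, COX2, COX3 and ATP6, had no peak, and the stretch without a peak was 8587 bp long in R1 and 8629 bp in R2. The summit of the second peak lay at 12749, within ND5, in both lists. That of the first lay at 3710, within ND1, in R1 and at 3277, within the transfer RNA gene TRNL1, in R2.

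Pileups separated a small group of the members from all other peaks. In R1, 30 members had a pileup above the highest peak of chromosomes 1 to 22 and X, with 13 on chr22_KI270733v1_random, 12 on chrUn_GL000220v1, 3 on chrUn_KI270438v1 and 2 on chrM. In R2 there were 35, with 15 on each of the first 2 of these sequences, 3 on chrUn_KI270438v1 and 2 on chrM. All 20 peaks with the highest pileups were members in each list. Of the highest 1000, members made up 66 (6.6%) in R1 and 62 (6.2%) in R2, against 0.436% and 0.434% of the whole lists. Peaks over the near-identical rRNA units, which are not independent, are part of these counts.

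The 3 peaks of chrUn_KI270438v1 stood apart from the rRNA units and chrM by a higher fold. The region at 109098 to 110610 had a pileup of 3333 in R1 and 3332 in R2, the highest outside chrM, with folds of 5.48 and 5.35. Its neighbour at 103740 to 105298 had pileups of 2521 and 2449 and folds of 6.38 and 6.07. The third, at 111226 to 112439, had pileups of 2361 and 2439 and folds of 4.51 and 4.56. This sequence had 10 peaks in R1 and 8 in R2, and the next highest of them had pileups of 104 and 102. Outside these sequences the highest member lay on chr17_GL000205v2_random, beginning at 86679 in R1 and 86667 in R2, with pileups of 1404 and 1431, below the chromosomal maximum.

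**Figure D2:**
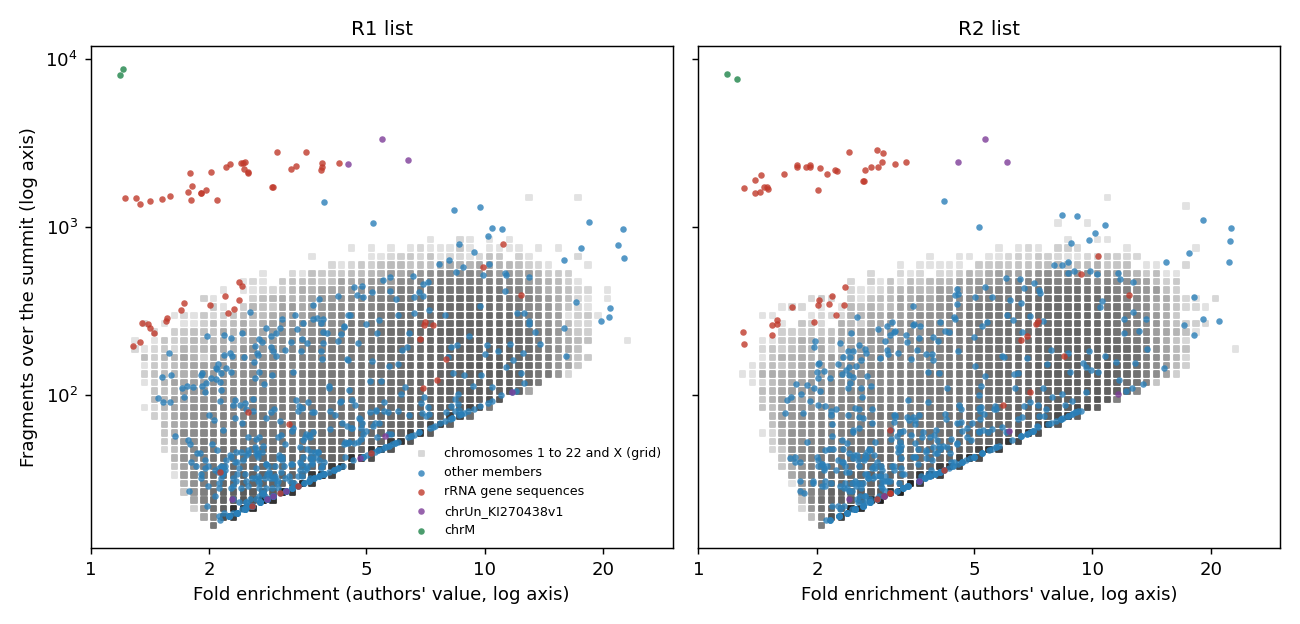
Fold enrichment (horizontal, log axis) against fragments over the summit (vertical, log axis) for every member in the R1 list (left) and the R2 list (right), over a grey grid that is darker where chromosomes 1 to 22 and X have more peaks. The peaks over the rRNA units (upper red points), 3 peaks of chrUn_KI270438v1 (purple) and those of chrM (green) stand above the grid, while most other members (blue) lie within it.

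A second small group was strong by fold. Among the 100 highest folds of a list were 9 members in R1 and 10 in R2, where 0.0697% and 0.0741% of all peaks have such a rank. Among the 20 highest were 7 and 8. The best mean rank among members belonged to chrUn_KI270442v1, 91801 to 93039, with an R1 fold of 22.4 and an R2 fold of 22.5, the third and second highest of their lists, and pileups of 974 and 986. Next came chrUn_KI270337v1, 12 to 1090, with folds of 22.5 and 22.2 and pileups of 651 and 623. The third was chrUn_GL000214v1, 64158 to 65711, with folds of 21.8 and 22.3 and pileups of 779 and 823. In the first 2 of these regions the R1 and R2 summits were the same base (92398 and 550), and in the third they lay 5 bp apart.

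The next 7 regions by this rank had folds between 15.9 and 20.9. They were found on chrUn_KI270336v1, chr9_KI270718v1_random, chrUn_KI270310v1, chrUn_GL000195v1, chrUn_KI270466v1, chr17_GL000205v2_random and chrUn_KI270304v1. The one on chrUn_GL000195v1, at 86057 to 87124, had the highest pileup of the 10, with 1069 fragments in R1 and 1104 in R2. The one on chr9_KI270718v1_random was 411 bp wide, the narrowest of the 10, with folds of 20.8 and 19.0. In all 10 regions the local background was 57.3 fragments or less.

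Several of these strong peaks lay at the start of a sequence and were its only peak. In R1, 31 sequences had a single peak, which for 21 of them ended within the first 5000 bp, and in R2 the numbers were 30 and 22. These peaks took up a median of 85.7% of the stretch from the first base to the end of the peak in R1 and 79.2% in R2. The lengths of the sequences are not in the lists. How far a lack of flanking sequence bears on the local background, and so on the fold, was not tested. Their median fold was 8.42 in R1 and 8.34 in R2, with a range of 2.24 to 22.5 and of 2.50 to 22.2. Where the single peak ended beyond 5000 bp (10 sequences in R1, 8 in R2), the median fold was nearly as high, 7.20 and 7.0. Peaks on sequences with more than 1 peak, chrM left out, had a median fold of 3.14 (592 peaks) and 3.19 (554 peaks). Single peaks thus had higher median folds than these in both positions.

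Most members were weaker than peaks of the chromosomes by fold. The median fold of all members was 3.24 in R1 (quartiles 2.46 and 5.21) and 3.26 in R2 (2.49 and 5.23), against 5.04 (3.14 and 7.89) and 5.12 (3.18 and 7.85) on chromosomes 1 to 22 and X. Unplaced and unlocalised sequences were alike in this, with medians of 3.03 and 3.36 in R1 and 3.18 and 3.39 in R2. A fold at or above the median of the whole list, which 50% of all peaks reach, was found for 164 members (26.2%) in R1 and 157 (26.8%) in R2. Members had median widths of 608 (R1) and 640.5 bp (R2), against 682 and 702 bp. The median pileup of 68 and 66.5 fragments was close to the 72 of the chromosomes, while the median background of 14.9 and 14.6 was above their 11.6 and 11.5. The lowest background of a list was shared by 23.4% of members in R1 and 23.0% in R2, against 30.8% and 30.3% of all peaks.

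**Figure D3:**
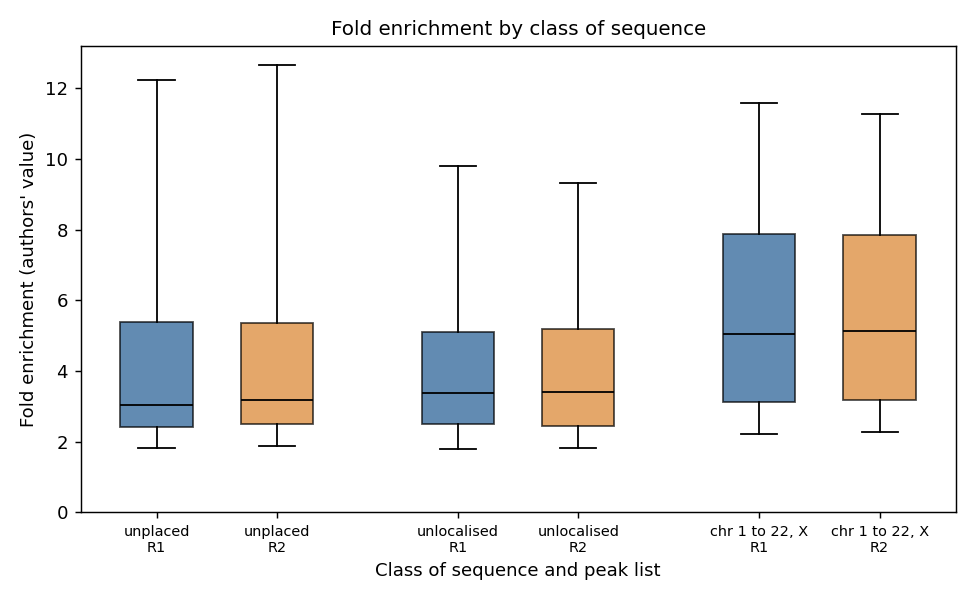
Fold enrichment (vertical axis) of peaks on unplaced sequences, unlocalised sequences and chromosomes 1 to 22 and X in the R1 (blue) and R2 (orange) lists. Boxes span the quartiles with the median as a line, and whiskers reach the 5th and 95th percentiles over peaks; the medians are 3.03 and 3.18, 3.36 and 3.39, and 5.04 and 5.12.

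The peaks were concentrated on few sequences. The 12 sequences with the most regions, of which the last was tied, held 352 members (56.3%) in R1 and 339 (57.8%) in R2. chr14_GL000225v1_random led with 54 peaks in each list, which covered 22.8% of the sequence up to its last peak in R1. Its folds lay between 1.59 and 8.60 in R1 and between 1.72 and 8.83 in R2, and its median background of 62.7 fragments in R1 was above the chromosome median. chr22_KI270736v1_random followed with 47 peaks in each list at a median fold of 3.62 and 3.55. It had 25.9 peaks per 100 kb up to its last peak, near the 27.1 of the first, but a median background of 11.4 in R2 against 58.8 there.

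chrUn_KI270442v1 held 31 peaks in R1 and 36 in R2, with a median fold of 3.25 and 3.13, far below its leading region. chrUn_GL000219v1 held 30 and 27 peaks, and chrUn_GL000216v2 held 34 and 29. chrUn_GL000195v1 had the highest median fold of the 12, with 5.15 over 27 peaks in R1 and 4.66 over 25 in R2, near the medians of the chromosomes. chr17_GL000205v2_random held 22 and 25 peaks, chr11_KI270721v1_random 14 and 15, chrUn_GL000224v1 13 in each list and chr14_GL000194v1_random 13 and 7. The last tied at 14 regions with chr17_KI270730v1_random (13 and 16 peaks) and chr22_KI270734v1_random (15 and 10), and was taken as the first by name. The sequences with rRNA genes complete the 12, with 36 and 33 peaks on chr22_KI270733v1_random and 31 and 28 on chrUn_GL000220v1. Counted up to the last peak of each sequence and without chrM, the members lay at 7.69 peaks per 100 kb in R1 and 7.47 in R2, against 4.72 and 4.44 on chromosomes 1 to 22 and X. The lengths of the sequences and those without any peak are not in the lists, so these densities cover only stretches that carry a peak.

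**Figure D4:**
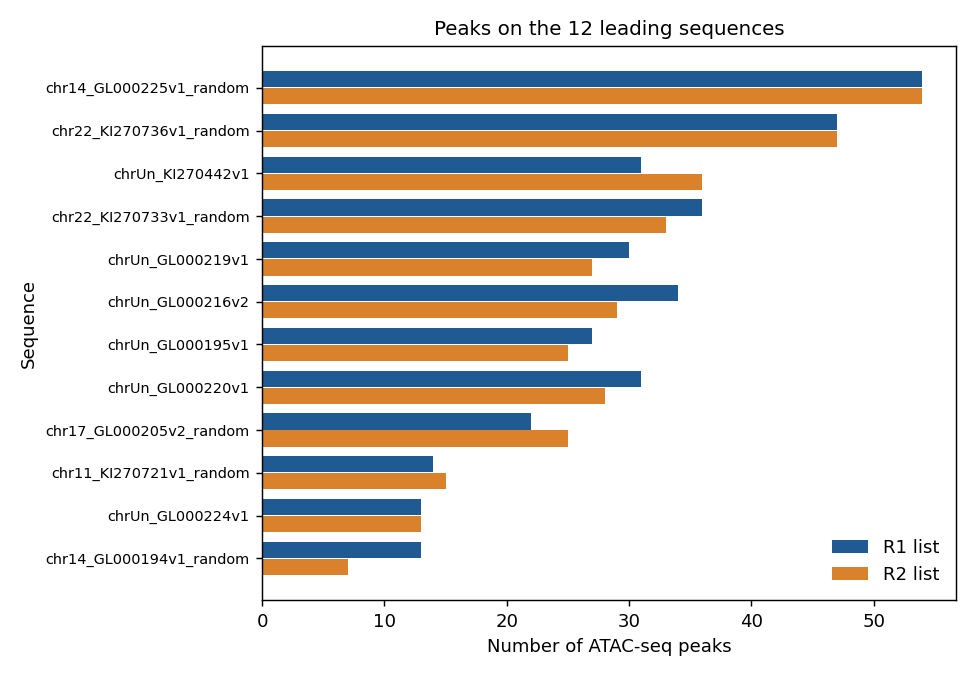
Number of ATAC-seq peaks (horizontal axis) on the 12 sequences with the most regions (vertical axis) in the R1 list (blue) and the R2 list (orange). chr14_GL000225v1_random and chr22_KI270736v1_random hold 54 and 47 peaks in each list, and chr14_GL000194v1_random 13 and 7.

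The widest regions were not the strongest. On unplaced sequences the widest lay on chrUn_KI270744v1, 108026 to 112443, with folds of 3.53 and 3.20. On unlocalised sequences it lay on chr4_GL000008v2_random, 306 to 4255, with folds of 3.85 and 3.77.

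Unlocalised sequences with a peak came from 10 chromosomes. Those of chromosome 22 held 109 peaks in R1 and 100 in R2, or 34.7% and 32.9% of the class, and those of chromosome 14 held 77 and 71. Both are acrocentric chromosomes, but none of the other acrocentric chromosomes is among the 10. Single sequences held much of these counts. In R1, chr22_KI270736v1_random and chr22_KI270733v1_random held 47 and 36 of the 109 peaks, and chr14_GL000225v1_random held 54 of the 77. Chromosome 17 had 47 and 52 peaks and chromosome 1 had 45 in each list. Median folds on the unlocalised sequences of chromosome 22 were 3.36 and 3.45, against 3.88 and 4.08 on chromosome 22 itself. For chromosome 14 they were 3.32 and 3.39 against 4.93 and 5.15. The order was not the same everywhere. The 3 peaks in R1 and 2 in R2 that belong to chromosome 16 had median folds of 8.62 and 8.47 against 4.48 and 4.78 on that chromosome. Chromosome 9, with 15 and 14 peaks, had a higher median than the chromosome in R1 (5.60 against 4.93) and a lower one in R2 (4.85 against 5.0).

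Finally, the lists were compared by overlap of at least 1 bp. Of the R1 members, 510 (81.6%, 95% Wilson interval 78.4 to 84.4) overlapped an R2 member, where 87.3% of all R1 peaks overlapped an R2 peak. Of the R2 members, 497 (84.8%, 81.7 to 87.5) overlapped an R1 member, against 91.8% of all R2 peaks. The intervals cover counting error only, and neighbouring peaks of 1 sequence are not independent. Joined where they overlapped, the members made 690 regions on 87 sequences, of which 486 were in both lists, 115 in R1 alone and 89 in R2 alone. The median distance between the summits of shared regions was 13 bp.

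Below the median fold of the list, 75.3% of members were found again in R1 and 79.5% in R2, against 74.8% and 83.7% on chromosomes 1 to 22 and X. At or above it, 163 of 164 (99.4%) and 156 of 157 (99.4%) were, against 99.8% and 99.9% on chromosomes 1 to 22 and X. Among weak peaks the share for members was thus close to that of the chromosomes in R1 and below it in R2, without a test. Regions of 1 list alone had median folds of 2.46 in R1 and 2.50 in R2. A peak was called in R1 only on 3 sequences (chrUn_KI270383v1, chrUn_KI270590v1 and chrUn_KI270749v1) and in R2 only on another 3 (chrUn_KI270384v1, chrUn_KI270517v1 and chrUn_KI270753v1). Each of these had a single peak, with folds of 2.35 to 2.46 and 20 or 21 fragments in R1 and folds of 2.50 to 3.30 and 21 to 28 fragments in R2.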

How the data were processed

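Peak lists of ATAC-seq libraries of wild-type hTERT-RPE1 cells were used as the authors deposited them, 1 merged list per set (R1, R2) of 3 libraries. Per the submitters' processing notes, coordinates are on hg38. Not given in the sources used here are the aligner, its handling of reads with several matches, the peak caller and any Tn5 shift of reads. The authors deposited for each peak a fold enrichment over background (a ratio), a −log10 p-value, a −log10 q-value, an integer score that follows the q-value, and the summit offset. Their values describe peaks within a list. Depths of single libraries are not known.

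Members were taken by sequence name, and members and lists were chosen with earlier results of these data known. Coordinates are 1-based. The pileup and background were recovered from a relation in which (pileup + 1) / (background + 1) equals the fold and a Poisson tail above the pileup equals the p-value. Whole-number pileups met the −log10 p of 99.7% of R1 and 99.1% of R2 members to within 0.001, and of all members to within 0.00204 and 0.00114. This relation is inferred, and pileups on chrM may be off by 1. Genes came from the RefSeq table of GRCh38.p14, in which the genes of unplaced and unlocalised sequences carry no sequence name. Apart from the rRNA units and chrM, no gene was assigned. No genome sequence was used here, so sequence features of the regions were not described.

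The named items follow a rule: chrM, the 12 sequences with the most regions (ties in order of name), sequences with a peak in 1 list only, the 10 regions with the best mean percentile of fold, and the widest region of each class. The rRNA units, chrUn_KI270438v1 and the groups by pileup and length were chosen after their values were seen. Tested on simulated data, the overlap code erred on 0 of 1500 intervals and 100% of 20000 pileups came back exactly. The simulated pileups were built with the same relation, so they cannot show whether the deposited values follow it. The folds on chrM and the lowest fold over the rRNA units in R1 lay below the simulated folds. Alternatives were stricter q-values, stronger peaks by fold, stricter overlap and leaving out sequences. Work was done in Python (3.11.15) with pandas (2.3.3) and numpy (2.4.6) for the tables, scipy (1.17.1) for intervals and matplotlib (3.10.9) for figures.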

Additional observations from a re-analysis of the deposited data

How the results depend on the processing

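No paired analysis was possible because each set of 3 libraries is deposited as 1 merged list, and for the same reason leaving out a library was not run. A share or median counted as moved when it left the 95% interval of its main value, and a count when it changed more than 1.5-fold. Of 115 values under an alternative 48 moved, most of them under stricter thresholds, which remove weak peaks by construction. The shares below are for members only. No share of all peaks is given under these settings, so whether members differ there from the whole list was not tested.

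At −log10 q of at least 5, the share found in the other list was 90.2% for R1 and 89.5% for R2, the median fold 3.80 and 3.77, the width 745 and 759 bp, the pileup 92 and 83 and the background 18.3 and 17.3. At 10, members numbered 376 in R1 (173 unplaced, 201 unlocalised) and 369 in R2 (166 and 201). Their shares were 92.3% and 91.9%, folds 4.56 and 4.53, widths 884 and 853 bp, pileups 145 and 136 and backgrounds 26.2 and 22.8. With both lists limited to peaks of at least their median fold, 164 were left in R1 (85 unplaced, 79 unlocalised, 0 on chrM) and 157 in R2 (77, 80 and 0), with shares of 89.0% and 93.6% and widths of 1066 and 1060 bp.

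Counting a region as shared with an overlap of at least 50% of both gave 68.6% and 73.2%, and with summits at most 100 bp apart 58.7% and 62.6%. Leaving out chr14_GL000225v1_random lowered the R1 pileup to 57 and its background to 13.4. Leaving out the sequences with rRNA genes, chosen after seeing the data, gave pileups of 56.5 and 59 and backgrounds of 13.3 and 13.6. Leaving out chrM, also chosen then, or the alternate sequences, of which there were 0, moved none of these values. Since the depth of single libraries is unknown, how far depth limits the weak peaks called in 1 list alone was not tested.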
